A study of Mus musculus with 6 samples.

Results

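The MYC, MAX and MXD network is a set of 9 genes for transcription factors that share MAX as a dimerization partner, and its members were taken by symbol from a table of 48897 genes. They are Myc, Mycn, Max, Mxd1, Mxd3, Mxd4, Mxi1, Mnt and Mga. All 9 passed the filter on low counts, as did 18563 genes in all. RNA was sequenced from mouse embryonic fibroblasts, connective tissue cells grown from embryos, of the C57BL/6 strain at passages 5 to 7. Control cells received phosphate-buffered saline, the TC group received TNF-α with cycloheximide, and the TCZ group received TNF-α, cycloheximide and z-VAD-fmk, with 2 libraries in each group. The cytokine TNF-α drives inflammation, cycloheximide stops translation, and z-VAD-fmk inhibits caspases, the proteases of apoptosis. The effects of TNF-α and cycloheximide cannot be told apart, since no group received either alone. The sources used here give neither doses nor times.

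MYC and MYCN form dimers with MAX that bind the E-box CACGTG and activate genes of growth and ribosome production. The MXD proteins, MXI1 (also called MXD2) and MNT bind the same partner and the same sites, and recruit the SIN3 corepressor. MGA is a very large MAX partner that works within a repressive Polycomb-type complex. Myc mRNA is short-lived and is a textbook example of a transcript that accumulates when protein synthesis is blocked.

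The libraries held between 24922627 and 52909926 counts. Control 2 and TCZ 2 stood apart in depth and in small RNAs, with 1338 and 4 counts of the signal recognition particle RNA Rn7s1 against 4916 to 6106 in the other libraries. Results that change without them are given with both values. Fibroblast markers summed to between 36720 and 41010 CPM (counts per 1e+06, scaled by TMM) in the 6 libraries, with none of the 10 markers at 0. Single fibroblast markers moved, with 2 higher and 6 lower in TC and 0 higher and 3 lower in TCZ against control. Most of the sum came from collagen and fibronectin genes, of which Col1a1 fell and Fn1 rose in TC. Pdgfra, a growth factor receptor gene of fibroblasts, had 112 and 99.8 CPM in control, against 65.2 and 61.8 in TC, with 17.8 and 15.1 in TCZ. Its relative Pdgfrb had 522 and 494 CPM in control, against 153 and 149.7 in TC, with 286 and 269 in TCZ. Macrophage markers (7 genes) had a summed level of 15.2 to 15.3 CPM in control, against 11.98 to 14.28 in TC, with 24.2 to 26.9 in TCZ. Epithelial markers (7 genes) had a summed level of 16.7 to 19.4 CPM in control, against 75.7 to 82.6 in TC, with 13.7 to 17.7 in TCZ. Keratin gene Krt19 made up most of this epithelial sum, at 69.4 CPM in TC 1 and 63.7 in TC 2. Epcam reached only 0.29 CPM in TC 1 and 0.28 in TC 2, and Cdh1 only 0.23 and 0.24. Of the 6 epithelial markers tested, 5 were higher and 0 lower in TC against control. Esrp1 was at 0 in every library except TCZ 2. Endothelial markers (5 genes) had a summed level of 12.4 to 12.8 CPM in control, against 141 to 148 in TC, with 56.4 to 57.3 in TCZ, most of it from Kdr. The part of such cells in the results was not tested. In bulk RNA, a change in the mix of cells and a change in RNA per cell cannot be told apart.

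In both treated groups Myc, Mycn and Mxd1 rose, Mxd3, Mxd4 and Mxi1 fell, and Mga moved in opposite directions. In TC against control, 7 of 9 members passed the threshold (adjusted p under 0.05 by edgeR's quasi-likelihood test), 4 higher and 3 lower, where 60.7% of all genes tested passed (31.6% higher and 29.2% lower). In TCZ against control all 9 passed, 3 higher and 6 lower, beside 60.1% of all genes (31.5% higher and 28.6% lower). With library totals as the only scaling, the split of all genes turned from 5857 higher and 5412 lower to 5079 and 6586 in TC against control, and from 5851 and 5313 to 4556 and 7019 in TCZ against control. In TCZ against TC all 9 passed, 5 higher and 4 lower, beside 56.1% of all genes (28.2% higher and 27.9% lower). Libraries of the groups compared did not overlap for any member, and for 79.6%, 77.9% and 78.5% of all genes in the same order of comparisons. The median log2 fold changes of the members were 0.11, -0.56 and 0.82 in these comparisons, and those of all genes tested were 0.02, 0.05 and 0.02. Without control 2 and TCZ 2 the counts of members were 8, 9 and 8. The comparisons share libraries, so their calls are not independent.

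**Figure D1:**
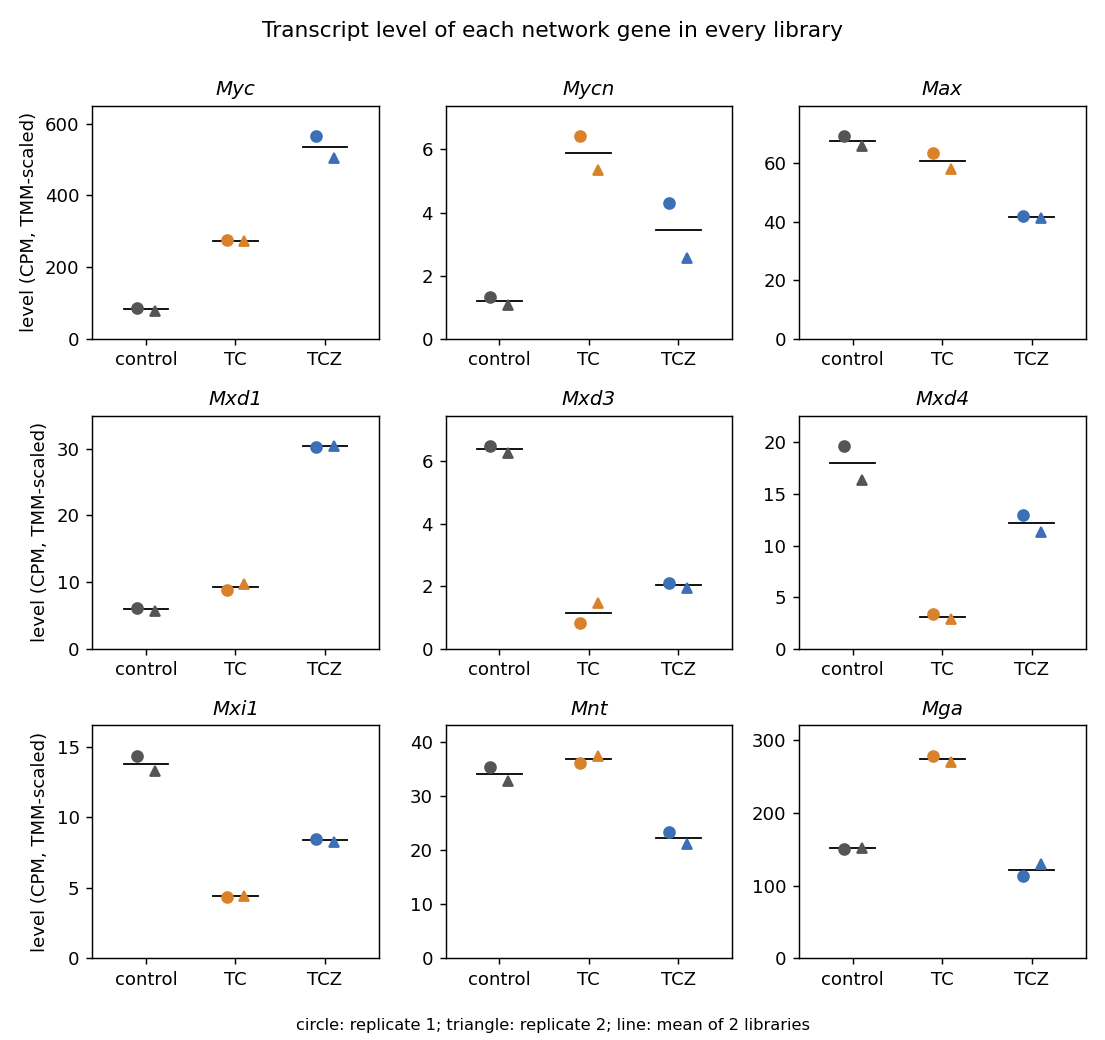
Level of each network gene in CPM scaled by TMM (y axis, from 0, separate scale per gene) in the 6 libraries by group (x axis). Circles are replicate 1, triangles replicate 2 and lines the mean of both. Myc and Mxd1 step up from control to TC to TCZ, while Mxd3, Mxd4 and Mxi1 are lowest in TC.

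Myc (chromosome 15, 61985341 to 61990361, plus strand, mm10) encodes the network's main activator. It had 87.2 and 76.9 CPM in the control libraries, against 275 and 273 in TC, with 565 and 505 in TCZ. The libraries stepped up from group to group with no overlap. Myc rose 3.34-fold in TC (log2 1.74 ± 0.08 SE, adjusted p = 3.17e-14) and 6.51-fold in TCZ (2.70 ± 0.08, adjusted p = 2.11e-17). TCZ also exceeded TC by 0.96 ± 0.08 on the log2 scale (adjusted p = 7.75e-10). Its change stood above that of 85.9% of all genes tested in TC against control and of 88.8% in TCZ against control.

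Mycn (chromosome 12, 12936093 to 12941836, minus strand) encodes the paralog best known from the embryonic nervous system and neuroblastoma. It was scarce, with 64 and 32 reads in control, against 312 and 266 in TC, with 209 and 62 in TCZ. These correspond to 1.32 and 1.06 CPM, 6.42 and 5.35 CPM, and 4.31 and 2.56 CPM. Both treated groups lay above control in every library, by log2 2.28 ± 0.25 in TC (adjusted p = 6.99e-08) and 1.55 ± 0.26 in TCZ (adjusted p = 2.95e-05). Unlike Myc, Mycn was lower in TCZ than in TC (-0.74 ± 0.23, adjusted p = 0.00882). That last call was lost without TC 1 (-0.60, adjusted p = 0.0936), and with TCZ 2 left out alone or together with control 2 (-0.45 in either case, adjusted p = 0.101), while the value was -1.20 without TCZ 1.

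Max (chromosome 12, 76937269 to 76962343, minus strand) encodes the shared partner. Its level was 69.2 and 65.8 CPM in control, against 63.4 and 58.1 in TC, with 41.8 and 41.2 in TCZ. The TC libraries were below the control ones, but the difference did not pass (log2 -0.15 ± 0.07, 95% interval -0.31 to 0.00, adjusted p = 0.0791). It passed with library totals as the only scaling (-0.30, adjusted p = 0.000509), with only both of these groups in the model (-0.16, adjusted p = 0.0165) and with control 2 and TCZ 2 left out (-0.19, adjusted p = 0.0407), and was -0.09 without TC 2. In TCZ Max fell 1.63-fold against control (-0.70 ± 0.08, adjusted p = 5.00e-08) and 1.46-fold against TC (-0.55 ± 0.08, adjusted p = 2.41e-06). TCZ thus combined the highest Myc level of the 3 groups with the lowest Max level.

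RPKM (reads per kilobase of gene length and 1e+06 reads) compares levels of different genes as far as the deposited gene lengths hold. The ratio of deposited RPKM was 1.36 and 1.26 for Myc to Max in control. It was 4.68 and 5.06 in TC, and 14.6 and 13.2 in TCZ. Group means were 1.31 ± 0.07, 4.87 ± 0.27 and 13.9 ± 0.96 (SD, n = 2). Ratios taken within a library do not depend on the scaling between libraries. A permutation test of 2 libraries against 2 cannot give a two-sided p below 0.333, so the ratios are given as values.

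The 4 MXD genes, which encode the small MAX-binding antagonists of MYC, did not move as a unit. Mxd1 rose under both treatments, and Mxd3, Mxd4 and Mxi1 fell under both and were lower in TC than in TCZ. For Mxd3 the difference between TC and TCZ did not pass in some alternatives, given below. Mxd1 (chromosome 6, 86647044 to 86669326, minus strand) is known as an antagonist induced during differentiation. It had 6.16 and 5.60 CPM in control, against 8.83 and 9.65 in TC, with 30.3 and 30.4 in TCZ. The TCZ libraries were far above the other 4, which also did not overlap between control and TC. Mxd1 rose 1.56-fold in TC (log2 0.64 ± 0.11, adjusted p = 3.88e-05) and 5.13-fold in TCZ (2.36 ± 0.11, adjusted p = 2.85e-14), and TCZ exceeded TC 3.28-fold (1.72 ± 0.10, adjusted p = 5.53e-12). The change from TC to TCZ stood above that of 91.5% of all genes tested.

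Mxd4 (chromosome 5, 34176580 to 34187710, minus strand) had 19.7 and 16.3 CPM in control, against 3.31 and 2.90 in TC, with 13.0 and 11.3 in TCZ. The groups did not overlap, and TC was the low one. Mxd4 fell 5.82-fold in TC (log2 -2.54 ± 0.14, adjusted p = 3.96e-13), lower than the change of all but 2.1% of genes tested. In TCZ the fall was 1.48-fold (-0.56 ± 0.12, adjusted p = 0.000412), and TCZ exceeded TC 3.94-fold (1.98 ± 0.14, adjusted p = 8.79e-11). The deposited gene model of Mxd4 ends 2697 bases before that of GENCODE M21, so reads from a longer transcript end may be missing from its counts.

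Mxi1 (chromosome 19, 53310414 to 53375810, plus strand) had 14.4 and 13.3 CPM in control, against 4.385 and 4.405 in TC, with 8.49 and 8.23 in TCZ. As with Mxd4, TC was lowest and TCZ lay between. It fell 3.15-fold in TC (log2 -1.65 ± 0.13, adjusted p = 1.67e-10) and 1.65-fold in TCZ (-0.72 ± 0.12, adjusted p = 2.75e-05). TCZ exceeded TC by 0.93 ± 0.13 (adjusted p = 3.38e-06).

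Mxd3 (chromosome 13, 55325168 to 55330046, minus strand) encodes the family member usually tied to proliferating rather than differentiating cells. It had 315 and 189 reads in control, against 40 and 73 in TC, with 102 and 47 in TCZ, or 6.49 and 6.27 CPM, 0.82 and 1.47 CPM, and 2.102 and 1.944 CPM. Control was the high group, and the 2 TC libraries differed widely between themselves. Mxd3 fell 5.55-fold in TC (log2 -2.47 ± 0.26, adjusted p = 2.28e-08) and 3.14-fold in TCZ (-1.65 ± 0.25, adjusted p = 6.21e-06). The difference of TCZ from TC was 0.82 ± 0.28 (adjusted p = 0.0146), and it was lost without TC 1 (0.47, adjusted p = 0.189), without TCZ 1 (0.75, adjusted p = 0.0714) and with only both of these groups in the model (0.81, adjusted p = 0.0633), while it was 1.30 without TC 2. Mxd3 overlaps Prelid1, a gene for a mitochondrial lipid transfer protein, by 105 bases on the opposite strand. The strand setting of the counting is not given, so reads of both genes could be mixed there. Prelid1 had 208 and 173 CPM in control, against 123 and 127 in TC, with 183 and 146 in TCZ.

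**Figure D2:**
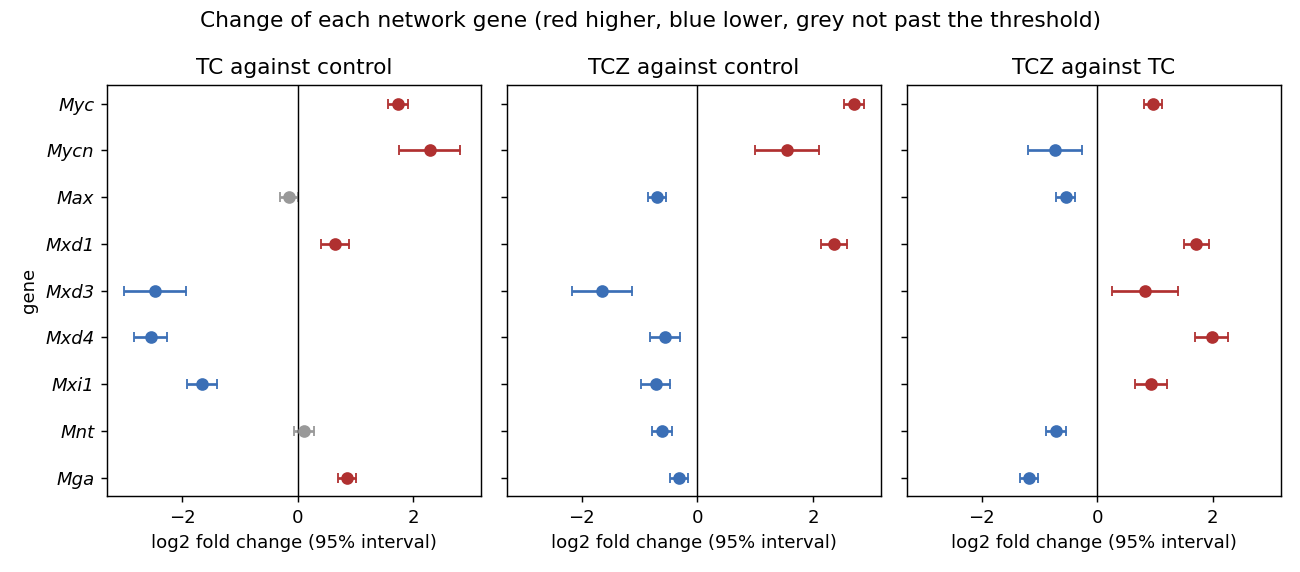
Log2 fold change (x axis) of each network gene (y axis) in the 3 comparisons, with 95% intervals from edgeR's quasi-likelihood fit to all 6 libraries. Red points passed the threshold as higher, blue points as lower, and the 2 grey points, Max and Mnt in TC against control, did not pass.

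Summed over Mxd1, Mxd3, Mxd4 and Mxi1, the RPKM was 24.9 and 23.2 in control, against 5.67 and 5.84 in TC, with 18.1 and 17.7 in TCZ. Control was high, TC low, and TCZ closer to control than to TC. RPKM is scaled by library totals and not by TMM. The TMM factors were 1.04 and 1.12 in control and 0.92 and 0.97 in TCZ. With TMM, the gap between control and TCZ would be smaller. The make-up of this sum differed as well. Mxd4 held 69.9% and 67.1% of it in control, against 48.6% and 41.2% in TC, with 55.6% and 52.6% in TCZ. The sum and shares lean on Mxd4 through its short deposited length. That length is 1179 bases, against 1734 for Mxd3, 4829 for Mxd1 and 6596 for Mxi1. In reads, control 1 had 954 for Mxd4, 697 for Mxi1, 315 for Mxd3 and 299 for Mxd1. The share of Mxd1 was 5.35% and 5.62% in control, against 31.6% and 33.5% in TC, with 31.8% and 34.4% in TCZ. Mxd1 thus held a similar share in both treated groups at very different totals.

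**Figure D3:**
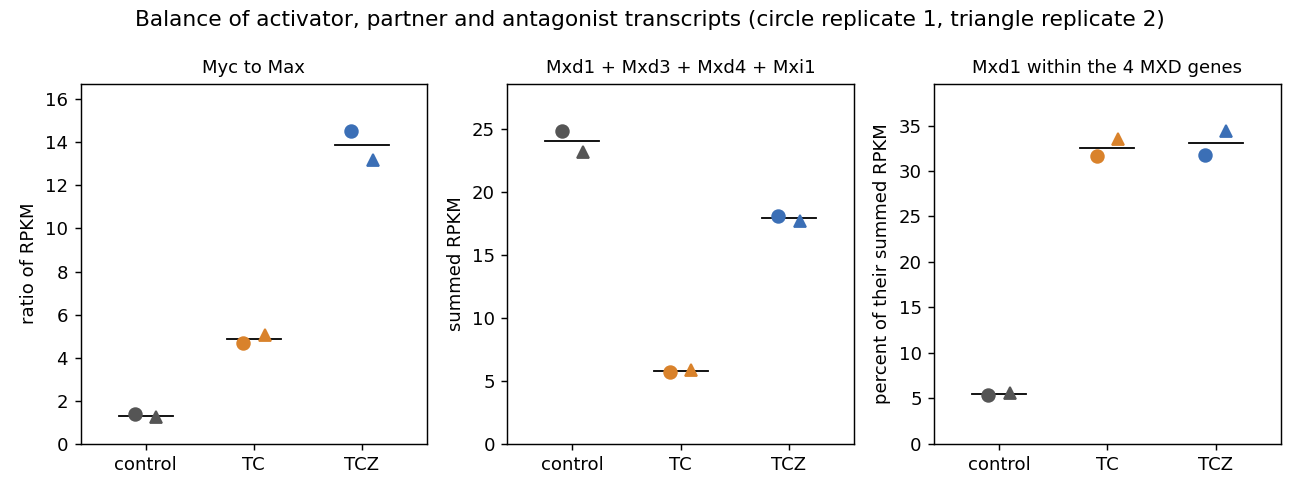
Ratio of Myc to Max RPKM, summed RPKM of the 4 MXD genes, and percent of that sum from Mxd1 (y axes, from 0) by group (x axis). Circles are replicate 1, triangles replicate 2 and lines their mean. The Myc to Max ratio rises from 1.31 to 4.87 to 13.9, the MXD sum dips in TC, and the Mxd1 share is near 33% in both treated groups.

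Mnt (chromosome 11, 74830781 to 74845725, plus strand) encodes a broadly expressed antagonist of MYC. It had 35.4 and 32.8 CPM in control, against 36.1 and 37.4 in TC, with 23.3 and 21.2 in TCZ. Control and TC lay close together without overlap, and TCZ was below both. In TC against control Mnt did not pass (log2 0.11 ± 0.08, 95% interval -0.06 to 0.28, adjusted p = 0.271), and the sign turned with library totals as the only scaling (-0.036, adjusted p = 0.672). In TCZ it fell 1.53-fold against control (-0.61 ± 0.09, adjusted p = 2.12e-06) and 1.65-fold against TC (-0.72 ± 0.08, adjusted p = 2.55e-07).

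The ratio of Myc RPKM to the summed RPKM of the 4 MXD genes and Mnt was 1.24 and 1.25 in control. It was 10.1 and 9.71 in TC, with 10.1 and 9.77 in TCZ. The treated groups overlapped in this ratio, although Myc itself was higher in TCZ. The overlap rests on the deposited gene lengths, with 1179 bases for Mxd4 against 6505 for Mnt. In reads, Myc over the same antagonist genes was higher in both TCZ libraries than in both TC libraries. Against the 4 MXD genes alone, the RPKM ratio was 1.52 and 1.55 in control. It was 19.8 and 19.1 in TC, with 11.9 and 11.5 in TCZ.

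Mga (chromosome 2, 119871643 to 119970129, plus strand) moved in opposite directions under the treatments. It had 150.3 and 152 CPM in control, against 278 and 269 in TC, with 113 and 129 in TCZ. TC was high, and TCZ lay below control without overlap. Mga rose 1.81-fold in TC (log2 0.86 ± 0.08, adjusted p = 1.67e-09) and fell 1.25-fold in TCZ (-0.32 ± 0.08, adjusted p = 0.000948). TCZ was 2.26-fold below TC (-1.18 ± 0.08, adjusted p = 2.17e-11). The fall in TCZ against control was -0.52 with library totals as the only scaling. It lay between -0.42 and -0.22 when libraries were left out. The deposited gene model of Mga starts 25585 bases before that of GENCODE M21.

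Within each group the order of levels per length could be read from RPKM. That order rests on the deposited gene lengths, from 1179 bases for Mxd4 to 22017 for Mga. In control it was Myc (37.0), Max (28.3), Mxd4 (16.5), Mga (7.43), Mnt (5.67), Mxd3 (3.98), Mxi1 (2.27), Mxd1 (1.32) and Mycn (0.49), each a mean of 2 libraries, with no overlap between neighbours. In TC, Mga (12.2 RPKM) and Mnt (5.53 RPKM) followed Myc (112 RPKM) and Max (23.0 RPKM), and Mxd4 was at 2.58 RPKM. There Mxd4 overlapped with Mycn (2.22 RPKM), and Mxi1 with Mxd3 (both 0.65 RPKM). In TCZ, Mxd4 (9.70 RPKM) again followed Myc (210.1 RPKM) and Max (15.2 RPKM), and Mxd1 (5.93 RPKM) stood above Mga (5.20 RPKM) and Mnt (3.22 RPKM). Mycn (1.24 RPKM) overlapped there with both Mxi1 (1.20 RPKM) and Mxd3 (1.10 RPKM).

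Myc held 35.9% ± 0.70 of the summed RPKM of the 9 genes in control, 69.7% ± 0.62 in TC and 83.1% ± 0.69 in TCZ (SD, n = 2). Max went from 27.5% ± 0.90 to 14.3% ± 0.67 and 6.00% ± 0.37. The whole sum was 104 and 102 RPKM in control, against 162 and 159 in TC, with 259 and 247 in TCZ. These sums too are scaled by library totals and not by TMM.

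**Figure D4:**
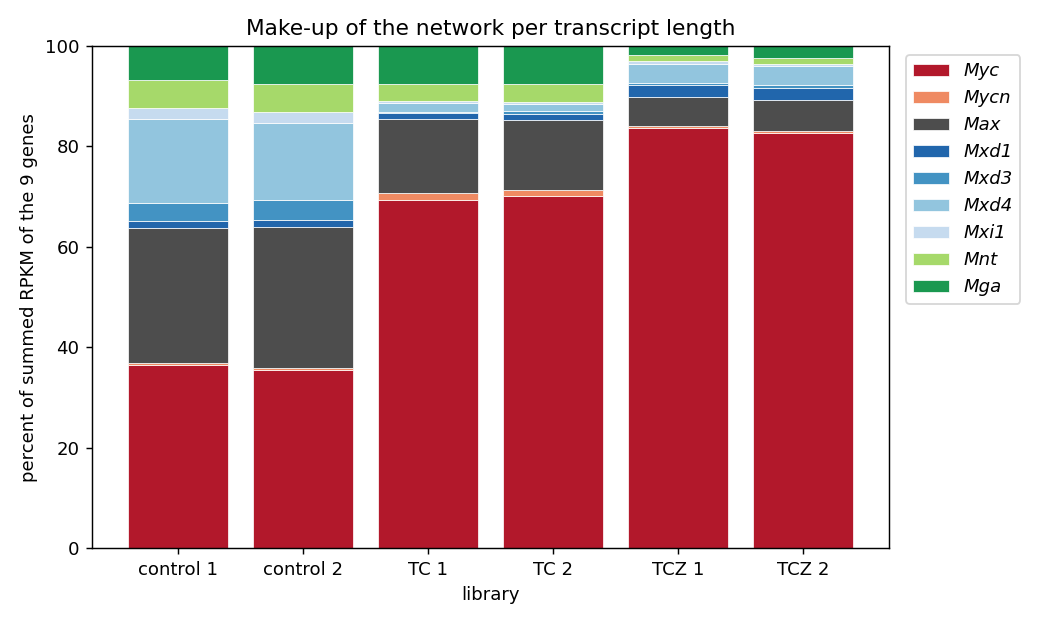
Percent of the summed RPKM of the 9 network genes (y axis) held by each gene in every library (x axis). Myc takes 35.9% of the sum in control, 69.7% in TC and 83.1% in TCZ on average, while the blue MXD segments are largest in control.

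RefSeq promoter windows, from 250 bases before to 50 after a gene's start on GRCm38.p6, were matched for 8 of the 9 members, in 10 windows, but not for Myc. The E-box CACGTG, the site of MYC and MAX themselves, was found in the windows of Mxd4, Max and Mnt and in no window of the other 5. On either strand 7.15% of all 32851 windows hold it. It began 219 bases before the RefSeq start in Mxd4, 123 before it in Mnt and 3 before it in Max. The deposited gene model of Mxd4 starts at the same base. Those of Mnt, Max, Mxd1, Mxd3 and Mga start 143, 95, 167, 315 and 25585 bases further upstream. That of Mxi1 starts 92 to 19281 bases upstream of its windows' starts. The E-boxes of Mnt and Max thus lie inside the deposited genes, as does part of the Mxd1 stretch. The 250 bases before the RefSeq start are shown for Mxd1 and Mxd4, because these MXD genes moved in opposite directions in TC. For Mnt and Max, 60 bases around the E-box are shown. Capitals mark the E-box. The Mxd4 stretch lies at chr5:34187711-34187960 on the minus strand, that of Mxd1 at chr6:86669160-86669409 on the minus strand, that of Mnt at chr11:74830774-74830833 on the plus strand and that of Max at chr12:76962219-76962278 on the minus strand.
Mxd4: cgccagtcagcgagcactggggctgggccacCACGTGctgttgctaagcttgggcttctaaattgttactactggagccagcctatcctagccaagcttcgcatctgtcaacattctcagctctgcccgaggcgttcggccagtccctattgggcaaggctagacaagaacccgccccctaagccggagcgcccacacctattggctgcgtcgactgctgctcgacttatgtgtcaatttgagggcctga
Mxd1: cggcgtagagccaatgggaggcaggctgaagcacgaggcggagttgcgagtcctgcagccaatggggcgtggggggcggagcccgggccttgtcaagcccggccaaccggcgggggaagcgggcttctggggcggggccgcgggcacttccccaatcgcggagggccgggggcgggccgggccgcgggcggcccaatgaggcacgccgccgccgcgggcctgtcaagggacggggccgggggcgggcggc
Mnt: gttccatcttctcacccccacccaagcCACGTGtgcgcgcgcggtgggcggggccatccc
Max: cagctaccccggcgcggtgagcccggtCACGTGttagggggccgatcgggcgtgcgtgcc

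The same windows were searched on both strands for AP-1 (TGANTCA), CRE (TGACGTCA), E2F (TTTCCCGC) and NF-kB sites, which 7.81%, 1.79%, 1.07% and 8.46% of all windows hold. The only match among the members was an NF-kB site of Mycn, 38 bases into the transcript. Of the 3 members with an E-box, Mxd4 fell in TC while Max and Mnt did not pass there. All 3 fell in TCZ against control, by -0.56, -0.70 and -0.61 on the log2 scale. Members with a window but no E-box moved both ways. Mxd3 and Mxi1 fell in TC (-2.47 and -1.65), while Mycn, Mxd1 and Mga rose. In TCZ against control Mxd3, Mxi1 and Mga fell (-1.65, -0.72 and -0.32), while Mycn and Mxd1 rose. Of all genes tested, 29.2% were lower in TC and 28.6% in TCZ. GC content was 76.7% in the window of Mxd1 and 61% in that of Mxd4.

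Other genes of the pathway moved in both directions. Pvt1, a long noncoding RNA gene 47625 bases downstream of Myc, had 12.8 and 11.4 CPM in control, against 44.9 and 43.8 in TC, with 16.7 and 15.8 in TCZ. It rose in TC (log2 1.87 ± 0.09, adjusted p = 7.87e-14) and less in TCZ (0.42 ± 0.10, adjusted p = 0.000644). Pvt1 was lower in TCZ than in TC (-1.44 ± 0.09, adjusted p = 1.08e-11), where Myc was higher. Mycl, the remaining MYC paralog, had 9.64 and 10.5 CPM in control, against 21.8 and 23.8 in TC, with 3.96 and 2.52 in TCZ. It rose in TC (1.18 ± 0.13, adjusted p = 4.35e-08) and fell in TCZ (-1.57 ± 0.15, adjusted p = 1.05e-08), so the 3 MYC paralogs had 3 different patterns over the groups. In the list of factors that act on Myc transcription and mRNA stability, 9 of 12 genes rose and 2 fell in TC, and 7 rose and 4 fell in TCZ against control. Of all genes tested, 31.6% were higher and 29.2% lower in TC, and 31.5% higher and 28.6% lower in TCZ, and the lists that follow stand beside the same shares. Zfp36, which encodes tristetraprolin, a protein that speeds decay of AU-rich mRNAs, rose from 22.5 ± 0.07 CPM to 158 ± 9.88 in TC and 861 ± 62.3 in TCZ.

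Known MYC-activated targets moved both ways. In TC 12 of 38 rose and 18 fell (median log2 -0.12), and in TCZ 14 rose and 12 fell against control (median 0.07). The rises in TC were at the share of all genes, 31.6%, where 29.2% were lower, and the medians of all genes were 0.02 and 0.05. Odc1, the rate-limiting enzyme of polyamine synthesis, rose by 2.45 ± 0.08 in TC (adjusted p = 1.00e-16) and 1.90 ± 0.08 in TCZ (adjusted p = 4.74e-15). Ccnd2, which encodes cyclin D2, changed by -1.87 ± 0.07 and -2.40 ± 0.07 (adjusted p = 1.32e-15 and 2.30e-17). Of 8 genes that MYC is known to repress, 4 rose and 3 fell in each treatment. Cdkn1a, which encodes the cell cycle inhibitor p21, rose by 1.499 ± 0.08 in TC, and Cdkn1b, which encodes the inhibitor p27, changed by -2.07 ± 0.12 there. These target lists hold genes that other pathways also control.

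Among partners of MGA in its repressor complex, 3 of 12 rose and 7 fell in TC (median -0.82), and 2 rose and 8 fell in TCZ against control (median -0.62). The shares of all genes were 31.6% higher and 29.2% lower in TC, and 31.5% and 28.6% in TCZ, for these and the following counts. Rybp, a Polycomb adaptor gene, rose by 1.76 ± 0.08 in TC and 2.65 ± 0.08 in TCZ, and E2f6, the complex's E2F-type repressor, changed by -1.56 ± 0.09 and -1.73 ± 0.09. Of 15 genes of the SIN3 corepressor that MXD proteins recruit, 4 rose and 5 fell in TC, and 9 rose and 3 fell in TCZ against control. Sin3a changed by -1.27 ± 0.08 in TC and -0.85 ± 0.08 in TCZ. Of 13 MYC coactivators, 5 rose and 4 fell in TC, and 4 rose and 3 fell in TCZ. Among 20 genes of MYC protein turnover, 7 rose and 9 fell in TC, and 5 rose and 11 fell in TCZ, so the rises in TC were near the 31.6% of all genes. Skp2, a ubiquitin ligase subunit gene, changed by -1.75 ± 0.10 in TC and -2.23 ± 0.11 in TCZ.

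The list around MLX, the centre of a parallel network that senses glucose, had 5 of 6 genes tested, with 3 higher and 1 lower in TC and 2 higher and 2 lower in TCZ against control. It holds Mycl, which is a MAX partner rather than one of MLX. Of the other 4 tested, Txnip and Arrdc4 rose and Mlxip fell in both treatments, and Mlx did not pass in either. Txnip, its best known target and an inhibitor of thioredoxin, rose from 97.4 ± 4.36 CPM in control to 819 ± 8.40 in TC and 840.3 ± 36.4 in TCZ. The difference of Txnip between TCZ and TC was 0.037 ± 0.07 and did not pass (adjusted p = 0.674).

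**Figure D5:**
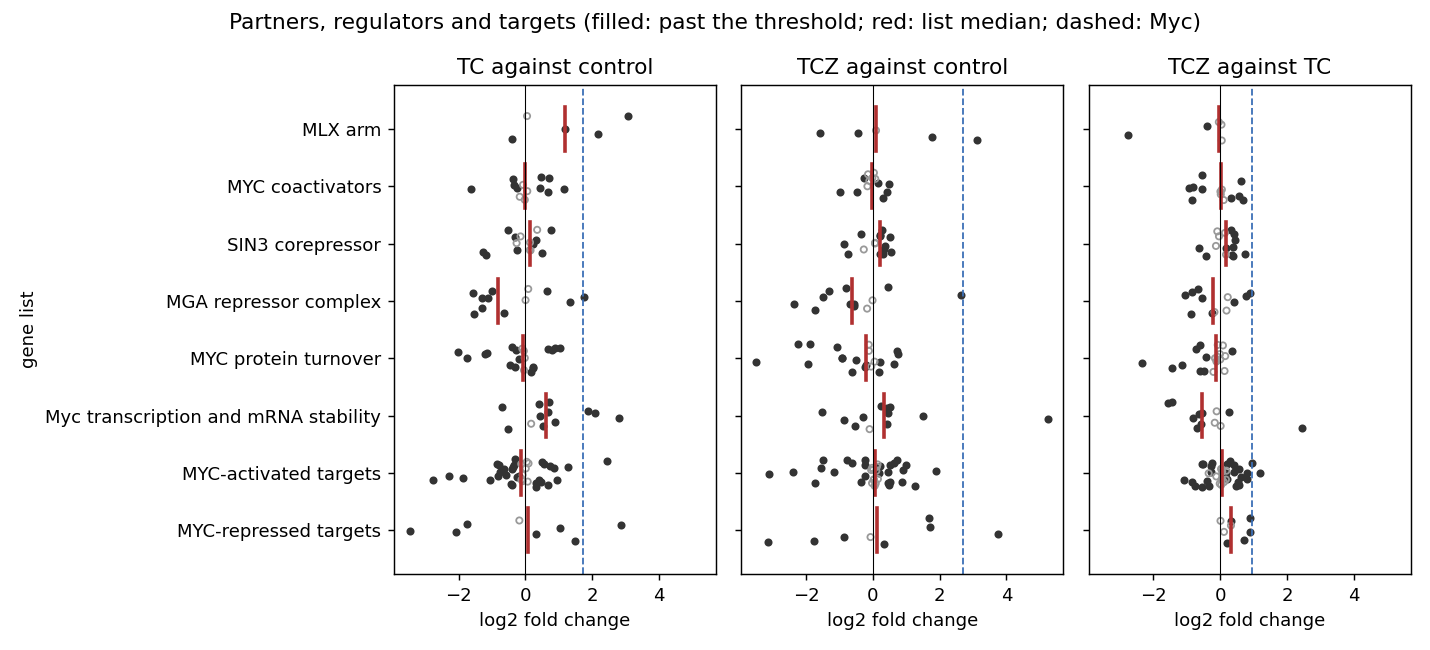
Log2 fold change (x axis) of genes in 8 lists around the network (y axis) in the 3 comparisons. Filled points passed the threshold and open points did not, red bars are list medians, and the dashed line is Myc. Medians of the MYC-activated targets lie at -0.12, 0.07 and 0.06, beside 0.02, 0.05 and 0.02 for all genes tested.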

How the data were processed

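Per the file headers, the authors deposited a raw read count and an RPKM value for each gene in 6 libraries. The authors' RPKM values equalled counts per kilobase of the deposited gene length and per 1e+06 counts, with a largest difference of 5e-07. HISAT2 2.1.0, HTSeq and build mm10 are named in the submitters' processing notes, while the sources used here give no strand setting or annotation version. Counts were fitted in R 4.3.3 with edgeR 4.0.16 (filterByExpr, minimum count 10, TMM scaling, a single model of group, 3 residual degrees of freedom). Each comparison used the quasi-likelihood test with Benjamini-Hochberg adjustment over all 18563 genes and a threshold of 0.05, and gene p-values are from it. SE is the log2 fold change divided by the root of the quasi-F statistic. CPM is scaled by TMM. Scaling by library totals alone shifted the median log2 fold change by -0.14 in TC and -0.20 in TCZ (each against control) and by -0.06 between them, so changes are relative to TMM. On simulated data with a fixed dispersion, 81.5% of 200 changed genes among 18563 were recovered for TC against control. In the real data 60.7% of genes passed, so this checks the procedure and is not the sensitivity of the real comparison.

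Libraries of a group differed beyond counting noise (chi-square per gene 4.3 to 7.35). Nothing in the labels says that they came from separate cultures, so p-values reflect only variation among these libraries, possibly technical. The members and 8 lists of 124 entries were chosen with earlier results of these data known, and get no list test. Named genes were all members and, per list and comparison, the 2 largest rises and falls among those that passed and averaged 10 CPM or more. For Myc, Mxd1 and Mxd4, the 3 nearest genes were also taken, of which 1 is not reported here. Prelid1 and the cell type markers named singly, and Pvt1, Mycl, Txnip, Igf2bp1 and Usp28 in comparisons the rule does not cover, were chosen with their values in view. The alternatives tried were RLE or total scaling, other filters, DESeq2 1.42.0, limma-voom (limma 3.58.1), only the groups compared, a replicate block and left-out libraries.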

Additional observations from a re-analysis of the deposited data

How the results depend on the processing

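Counts of passing members stayed between 7 and 9 over the 15 alternatives that kept the call rule, and the only sign that turned among members was that of Mnt in TC against control with library totals alone (-0.036). When a log2 change of 1 or more was also required, 5439 genes and 5 members passed for TC and 5965 and 4 for TCZ (each against control), and 4326 and 3 between the treatments. With counts in place of RPKM, Myc held 21.6% of the network in control, 41.0% in TC and 68.9% in TCZ. Leaving out libraries gave 9422 to 11437, 9535 to 10981 and 8706 to 10214 passing genes in the same order. The replicate block left 7, 9 and 9 members passing and gave 11240, 11166 and 10434 genes. Same-numbered libraries shared little, with correlations of their deviations of 0.01 for control and TC, 0.12 for control and TCZ and -0.02 for TC and TCZ, and the block changed no call of a member. With 1 library left in a group, that library is assumed to vary like the others. Mycn and Mxd3 rest on as few as 32 and 40 reads in a library. The causes of these changes were not tested.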

Other observations

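The genes whose centred log2 CPM lay nearest to that of Myc over the 6 libraries, by Euclidean distance, were Sgk1, a serum- and glucocorticoid-regulated kinase gene (distance 0.13), Rybp (0.16) and Ccdc71l (0.21). Sgk1 changed by log2 1.68 ± 0.07 in TC and 2.71 ± 0.07 in TCZ against control, beside 1.74 and 2.70 for Myc. Nearest to Mxd1 were Atf7ip, a chromatin-binding factor gene (0.19), Sertad1, a cyclin-dependent kinase regulator gene (0.20), and Mid1, a ubiquitin ligase gene (0.20). Among the 3 genes nearest to Mxd4 were Elovl6, a fatty acid elongase gene (0.30), and Gpd1l (0.31). Elovl6 changed by -2.39 in TC and -0.58 in TCZ against control, beside -2.54 and -0.56 for Mxd4. The distances are a description over 6 libraries in 3 groups. These genes were picked by nearness over the same libraries, so fold changes similar to those of the member follow from the choice.

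Igf2bp1, an RNA-binding protein gene known to shield Myc mRNA from decay, was higher in TC (0.70 ± 0.07) and lower in TCZ (-0.87 ± 0.08) than in control. Usp28, a deubiquitinase gene known to stabilize MYC, changed by 0.81 ± 0.10 in TC and -0.63 ± 0.11 in TCZ against control. Pecam1, an endothelial marker, had 1, 4, 9 and 5 reads in the control and TC libraries and 528 and 260 in TCZ. The endothelial list did not move as a unit. Of its 5 genes, 3 were higher and 2 lower in TCZ than in TC. All genes tested had 28.2% higher and 27.9% lower there. The lower ones were Kdr (-1.82) and Vwf (-1.05).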
